A study of Sus scrofa with 6 samples.

Results

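The miR-23/27/24 family is described here in small extracellular vesicles (s-EVs) of porcine follicular fluid. Its 5 members, ssc-miR-23a, ssc-miR-23b, ssc-miR-24-3p, ssc-miR-27a and ssc-miR-27b-3p, were selected by name as the mature miRNAs of the miR-23a/27a/24 and miR-23b/27b/24 clusters, and are 5 of the 453 miRNAs listed. miR-27b-3p was also picked because it stands at the top of the deposited values, so its level is a description. The rule itself does not use the difference between groups, but results of these data, that of miR-27b-3p included, were known when the members were chosen. Both groups came from prepubertal Landrace × Large White gilts, whose ovaries were collected at a slaughterhouse. In the HQ group the follicular fluid belonged to oocytes of high quality, whose cumulus-oocyte complex was not stained by the dye lissamine green B, and in the LQ group to oocytes of low quality, whose complex took up the dye. The follicles measured 2 to 6 mm per the labels (the methods of the study give a narrower range), and 0.5 mL from a pool of fluids went into each of the 3 HQ and 3 LQ vesicle preparations. The pools are not tied to animals in the sources used here, so p-values measure the spread between pools.

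Each cluster is transcribed as a primary transcript with hairpins of miR-23, miR-27 and miR-24, from which Drosha and Dicer cut the mature miRNAs. The clusters are paralogs, and their miRNAs pair with mRNAs mainly through the seed near the 5′ end. Known human targets are glutaminase for miR-23, FOXO1 and PPARG for miR-27, and the histone H2AX for miR-24, and miR-23a and miR-27a of human granulosa cells repress SMAD5, a transducer of BMP signals.

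The mature sequences are shown because they decide which members can be told apart. They were read from the RefSeq annotation of Sscrofa11.1, 5′ to 3′, with the seed (bases 2 to 8) in capitals.
miR-23a: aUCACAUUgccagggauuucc
miR-23b: aUCACAUUgccagggauuacca
miR-27a: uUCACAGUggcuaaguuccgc
miR-27b-3p: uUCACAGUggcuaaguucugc
miR-24-3p: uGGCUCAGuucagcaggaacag

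Each pair of paralogs shared its seed and differed by 1 substitution near the 3′ end. Counted from 1 at the 5′ end, miR-23b differed from miR-23a by U19A and by 1 further base at the end (22 against 21 bases), and miR-27b-3p differed from miR-27a by C19U. How reads were divided between such near-identical miRNAs can change the values of both, so the paralogs are also given as sums. The seeds of miR-23 and miR-27 differ from each other, and miR-24-3p has a seed of its own.

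The miR-23a/27a/24 cluster lies on the plus strand at chr2:65308117-65308524 (Sscrofa11.1), in a span of 408 bases with no host gene annotated. The mature miR-23a is at chr2:65308158-65308178, miR-27a at chr2:65308347-65308367 and the first copy of miR-24-3p at chr2:65308502-65308523. The miR-23b/27b/24 cluster lies on the minus strand at chr10:27079417-27080276, in 860 bases of an intron of the protein-coding gene C10H9orf3, which is read in the same direction. There, miR-23b is at chr10:27080206-27080227, miR-27b-3p at chr10:27079971-27079991 and the second copy of miR-24-3p at chr10:27079424-27079445. The mature miR-24-3p is identical in both copies, so its reads cannot be assigned to a cluster. No other mature miRNA is annotated within 10 kb of either.

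The hairpins of MIR23B and MIR27B are shown because the partners they encode had the most unequal levels of any pair in the family and moved in opposite directions. The annotated mature arms are in capitals.
MIR23B hairpin: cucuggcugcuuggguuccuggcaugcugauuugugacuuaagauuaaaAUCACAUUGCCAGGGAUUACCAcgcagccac
MIR27B hairpin: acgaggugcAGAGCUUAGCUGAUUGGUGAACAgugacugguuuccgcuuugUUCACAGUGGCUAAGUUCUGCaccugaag

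In MIR23B only the 3′ arm is annotated, while MIR27B carries both arms.

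Small RNA was sequenced, and the values are CPM, the counts of a miRNA scaled to library size, adjusted by the trimmed mean of M-values (TMM). Summed CPM was 948868, 915120 and 938323 in HQ replicates 1 to 3, against 1103611, 1033599 and 1075959 in LQ replicates 1 to 3. Values were whole multiples of 1 step per library, with 1643814 to 2057437 steps in all in HQ and 898530 to 3159116 in LQ. Whether a step is 1 read was not tested, so the depth is known only if it is taken as 1. LQ replicate 1 had the fewest steps, and the least abundant member, miR-23b, was 592 steps there. Fewer vesicles of a kind and less miRNA per vesicle cannot be told apart in these values.

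The 5 members spanned a wide range of levels. miR-27b-3p was the most abundant of all miRNAs in each of the 6 libraries, miR-24-3p ranked 13th to 19th, miR-27a 35th to 57th, miR-23a 48th to 56th and miR-23b 66th to 94th. The order of the means was miR-27b-3p, miR-24-3p, miR-27a, miR-23a and miR-23b in HQ as in LQ. miR-27a and miR-23a were neighbours whose values overlapped in HQ, where miR-27a was below miR-23a in replicate 2, while in LQ every value of miR-27a was above every value of miR-23a.

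miR-23b was higher in HQ. It was at 1256, 951 and 854 CPM in HQ replicates 1 to 3, against 727, 509 and 452 CPM in LQ replicates 1 to 3. The groups did not overlap, and replicate 1 was the highest library of each group. The log2 fold change of HQ over LQ was 0.87 (standard error 0.248, 95% interval 0.35 to 1.39, adjusted p = 0.0148 from limma), with means of 1020.15 ± 209.5 CPM in HQ and 563 ± 145.4 CPM in LQ (SD, n = 3 each). The adjusted p was 0.0781 without HQ replicate 1, 0.0634 without HQ replicate 2, 0.0704 without LQ replicate 2 and 0.0675 without LQ replicate 3, so the call rested on these 4 libraries. It was 0.0754 with a variance prior without trend.

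miR-23a had values in the same order but did not pass the test. It was at 2045, 2404 and 2118 CPM in HQ, against 1529, 1844 and 1899 CPM in LQ, and the groups did not overlap. The log2 fold change was 0.32 (95% interval -0.12 to 0.76, adjusted p = 0.264 from limma). Summed, miR-23a and miR-23b reached 3301, 3355 and 2972 CPM in HQ, against 2256, 2353 and 2350.4 CPM in LQ. The sum varied less between replicates than either paralog, with a coefficient of variation of 6.45% in HQ and 2.38% in LQ, against 20.5% and 25.8% for miR-23b and 8.65% and 11.4% for miR-23a. Its log2 fold change was 0.47 (95% interval 0.05 to 0.88, adjusted p = 0.0852 from limma), not past the threshold.

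miR-27b-3p was lower in HQ. Its level was 97783, 97961 and 112329 CPM in HQ, against 152858, 148802 and 165217 CPM in LQ. The groups were far apart relative to their spread, with coefficients of variation of 8.13% in HQ and 5.49% in LQ. The log2 fold change was -0.60 (standard error 0.159, 95% interval -0.94 to -0.27, adjusted p = 0.0104 from limma). The call was lost without HQ replicate 1 (adjusted p = 0.0575), without HQ replicate 2 (0.0632), with a variance prior without trend (0.0807) and after rescaling to equal sums (log2 fold change -0.40, adjusted p = 0.0654).

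miR-27a also had a lower mean in HQ, but the groups overlapped. Its values were 2700.2, 1869.9 and 2912 CPM in HQ, against 2679, 3003 and 3736 CPM in LQ. HQ replicate 2 was the lowest of the 6 libraries. The log2 fold change of -0.34 did not pass the test (95% interval -0.82 to 0.14, adjusted p = 0.267 from limma), and leaving out HQ replicate 2 or LQ replicate 3 gave -0.15 and -0.21. Rescaling to equal sums gave -0.15. miR-27a made up 2.69%, 1.87% and 2.53% of summed miR-27 in HQ, against 1.72%, 1.98% and 2.21% in LQ, so the sum followed miR-27b-3p (log2 fold change -0.60, adjusted p = 0.0110 from limma).

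miR-24-3p, the member with a copy in both clusters, was at 20235, 23601 and 19524 CPM in HQ, against 15049.6, 17372 and 15594 CPM in LQ. The groups did not overlap. The log2 fold change was 0.40 (95% interval 0.01 to 0.78), and its adjusted p of 0.114 from limma was not past the threshold. It passed only after rescaling to equal sums of CPM (log2 fold change 0.59, adjusted p = 0.0246). This rescaling moved the median log2 fold change of all tested miRNAs by 0.18, to 0.25. The change of miR-24-3p with the scaling was of the size of that shift. The plot of the level in each library shows the 5 members side by side.

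**Figure D1:**
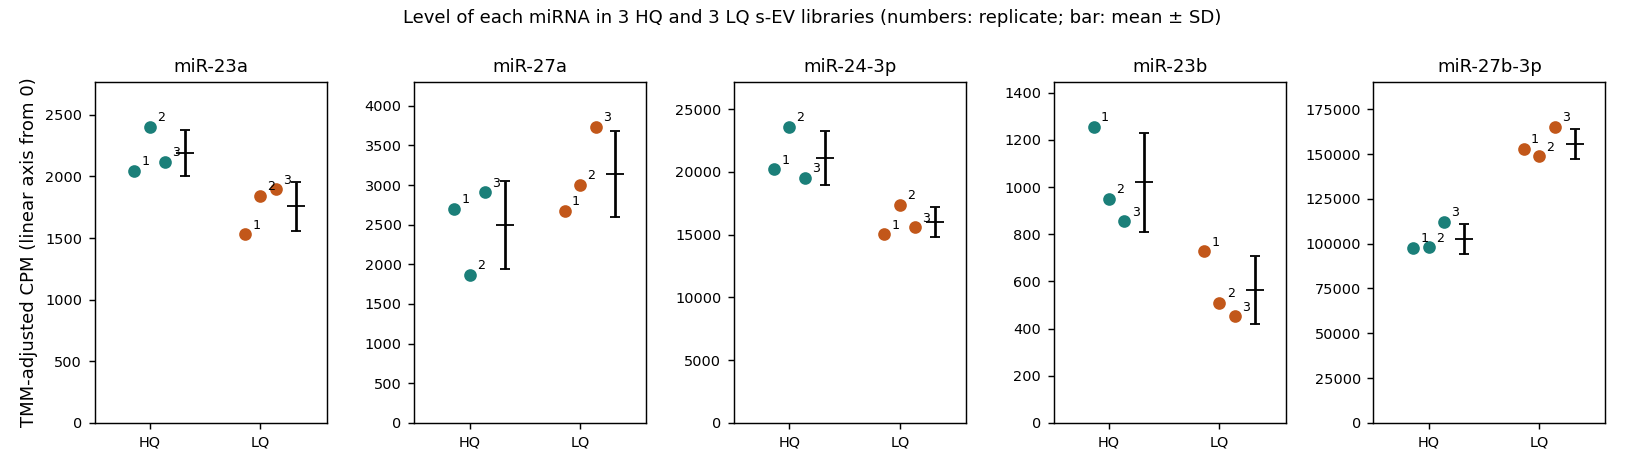
Level of each member in TMM-adjusted CPM (vertical axis, linear from 0, 1 scale per panel) in HQ and LQ libraries, with points numbered by replicate and bars for the mean ± SD of 3 replicates. The HQ points lie above all LQ points for miR-23a, miR-23b and miR-24-3p, lie below them for miR-27b-3p (97783 to 112329 against 148802 to 165217 CPM) and overlap them for miR-27a.

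Of the 5 members, 2 had an adjusted p under 0.05, set against 26.5% of the 309 tested miRNAs. In HQ, 1 was higher (11.7% of all tested miRNAs) and 1 was lower (14.9%). Members whose groups did not overlap numbered 4 of 5, against 43.7% of all tested miRNAs. At the thresholds of the study, which add a fold of at least 2 and a mean above 5 CPM, 0 members passed, against 12.6% of tested miRNAs. By limma without adjustment, 3 had p under 0.05. The median log2 fold change of the members was 0.32, beside 0.08 over all tested miRNAs, and the median absolute log2 fold change of all tested miRNAs was 0.53. miR-23b was the 38th highest of 309 and miR-27b-3p the 72nd lowest, so neither stood at the edge of the range.

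**Figure D2:**
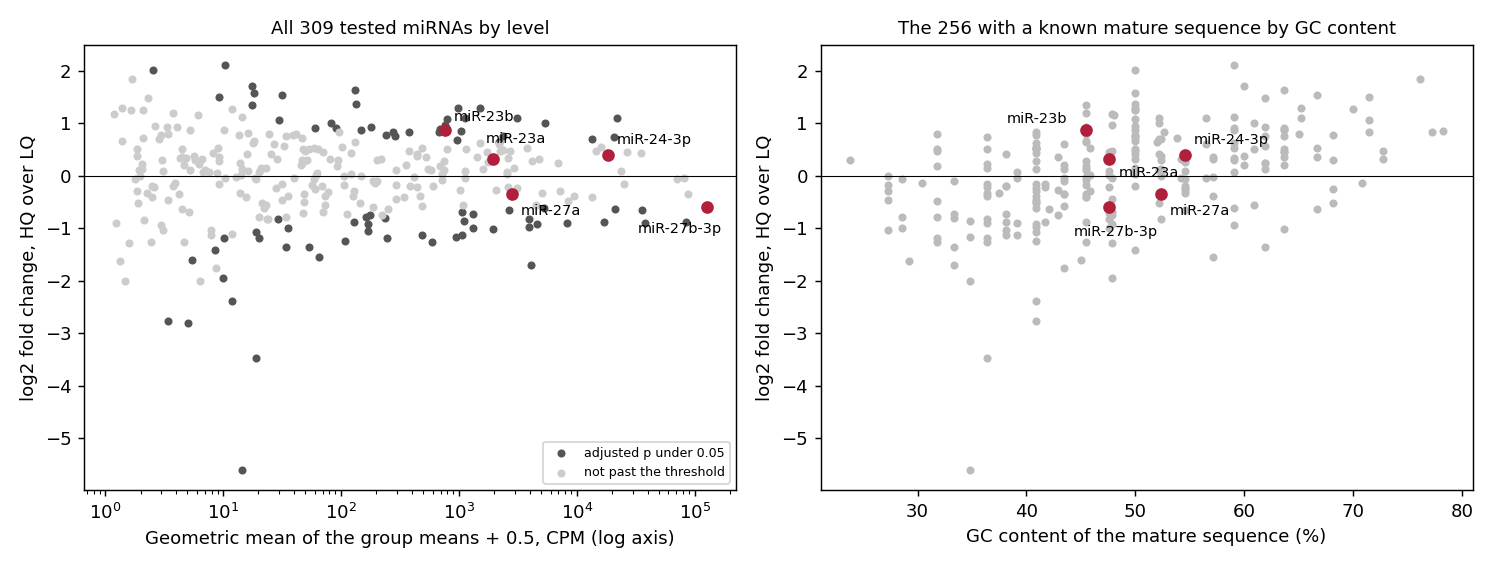
Log2 fold change of HQ over LQ for the 309 tested miRNAs, against the level in CPM (left, log axis) and, for the 256 with a known mature sequence, against GC content in percent (right), with the 5 members in red and, on the left, miRNAs with an adjusted p under 0.05 in dark grey. miR-23b (0.87) and miR-27b-3p (-0.60) lie on opposite sides of 0 and inside the spread of the other miRNAs.

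The partners of a cluster were then compared within each library, where the scaling of libraries drops out. miR-27b-3p outnumbered miR-23b, its neighbour on chromosome 10, in every library, and did so less in HQ. The ratio was 77.9, 103 and 131.5 in HQ, against 210.2, 292 and 366 in LQ, and the highest HQ value was below the lowest LQ value. The log2 difference was -1.47, a ratio 2.77-fold lower in HQ (95% interval -2.10 to -0.84). The adjusted p was 5.245e-05 in the limma fit of every miRNA over miR-23b, in which 36.7% of ratios passed. That p is too small, because the spread of miR-23b enters each of those ratios. In a limma fit over the ratios of all 47586 pairs of tested miRNAs, chosen after seeing the data, the adjusted p was 0.00283 (95% interval -2.13 to -0.82), and 20.9% of pairs passed. Those pairs are not independent either, because every miRNA enters many of them. With each library left out in turn the adjusted p over all pairs lay between 0.0013 and 0.0251, and with a variance prior without trend it was 0.0583. The exact two-sided permutation test gave p = 0.1, the smallest that 3 against 3 libraries allow (0.3 after adjustment over the 6 ratios).

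On chromosome 2, miR-27a and miR-23a were of similar level. Their ratio was 1.32, 0.778 and 1.38 in HQ, against 1.75, 1.63 and 1.97 in LQ. The groups did not overlap, and HQ replicate 2 alone had less miR-27a than miR-23a. The log2 difference was -0.66, with an adjusted p of 0.0553 from limma over ratios to miR-23a, where 28.9% passed, and of 0.126 over all pairs (95% interval -1.29 to -0.03). Leaving out HQ replicate 2 gave -0.40. The direction was that of the chromosome 10 pair. The ratio of the 2 ratios was 59.0, 132.4 and 95.7 in HQ, against 120.0, 179.5 and 186 in LQ, which overlapped (exact two-sided permutation test, p = 0.2), so a difference between the clusters was not shown. Among the 6 ratios 2 had groups that did not overlap, against 37.1% of all pairs.

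miR-24-3p kept close to miR-23a. Its ratio to miR-23a was 9.89, 9.82 and 9.22 in HQ, against 9.84, 9.42 and 8.21 in LQ, a log2 difference of 0.08 (95% interval -0.50 to 0.66 and adjusted p = 0.874 over all pairs by limma). The interval allows a difference of either sign. The highest of the 6 ratios was 1.20 times the lowest, and 0.103% of all pairs varied as little. Among the 74 miRNAs with a mean of at least 1000 CPM, 18 of 2701 pairs (0.666%) did. Only the steadiest ratios, those of miR-24-3p to miR-23a and to summed miR-23, were compared in this way, so these shares are a description. After correction for GC content the log2 difference was -0.18, still not past the threshold.

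The ratio of miR-24-3p to miR-23b was 16.1, 24.8 and 22.9 in HQ, against 20.7, 34.1 and 34.5 in LQ, and the groups overlapped (log2 difference -0.47, adjusted p = 0.304 from limma over all pairs). LQ replicate 1 was the lowest of its group, and the log2 difference was -0.71 without it and -0.28 without HQ replicate 1.

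Between paralogs, neither ratio differed past the test. That of miR-23b to miR-23a was 0.614, 0.396 and 0.403 in HQ, against 0.476, 0.276 and 0.238 in LQ, with a log2 difference of 0.55 and an adjusted p of 0.246 from limma over all pairs (95% interval -0.13 to 1.23). Replicate 1 was the highest in each group. That of miR-27b-3p to miR-27a was 36.2, 52.4 and 38.6 in HQ, against 57.1, 49.5 and 44.2 in LQ, with a log2 difference of -0.26 and an adjusted p of 0.572 (95% interval -0.86 to 0.35). Left-out libraries moved the difference for miR-27 to between -0.42 (without HQ replicate 2) and -0.15 (without HQ replicate 1), and GC correction to -0.08. In ratios to miR-27a, 15.6% of miRNAs passed. Both intervals include 0 and also differences of the size seen between miR-27a and miR-23a.

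**Figure D3:**
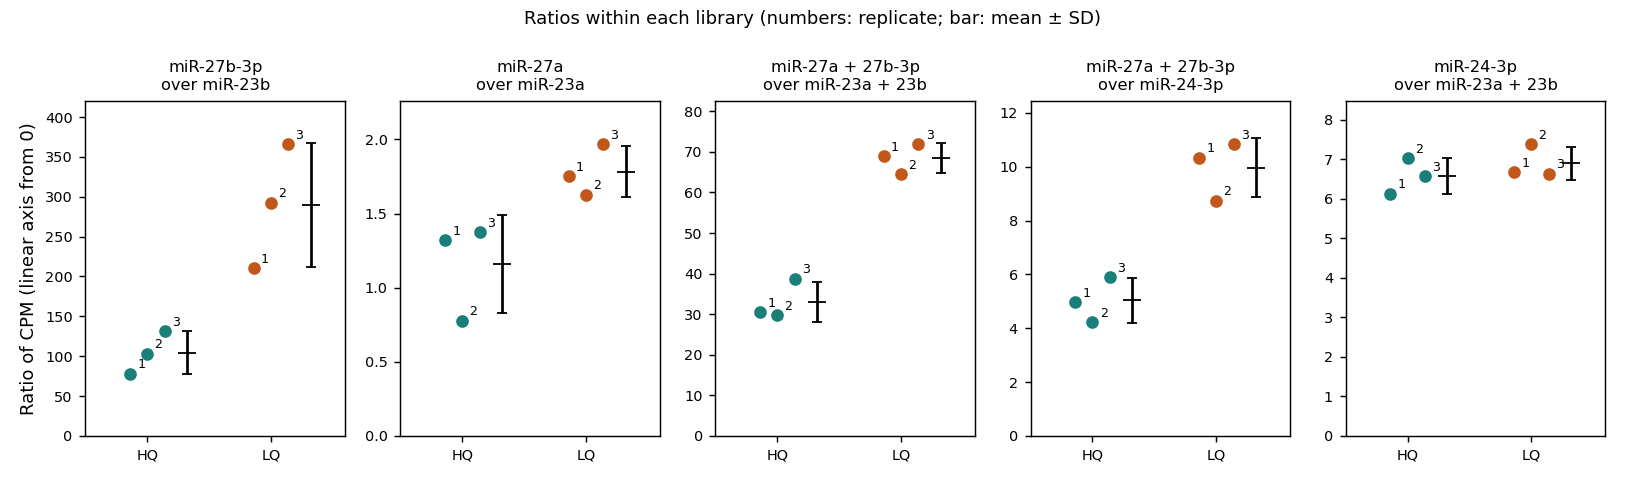
Ratios of CPM within each library (vertical axis, linear from 0, 1 scale per panel) in HQ and LQ, with points numbered by replicate and bars for the mean ± SD of 3 replicates. The 4 ratios with miR-27 on top are lower in every HQ library than in any LQ library, while miR-24-3p over summed miR-23 lies between 6.13 and 7.38 in all 6.

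The sums over paralogs, which do not depend on how reads were divided, were compared after the values had been seen. Summed miR-27 over summed miR-23 was 30.4, 29.8 and 38.8 in HQ, against 68.9, 64.5 and 71.9 in LQ. The groups were well apart, at 33.0 ± 5.02 in HQ and 68.4 ± 3.71 in LQ (SD, n = 3 each). The log2 difference was -1.06 (standard error 0.278, 95% interval -1.64 to -0.48, adjusted p = 0.0111 from limma over all pairs with sums, of which 20.9% passed). The adjusted p was 0.0506 without HQ replicate 2, 0.0506 without LQ replicate 3 and 0.0824 with a variance prior without trend.

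Summed miR-27 over miR-24-3p was 4.97, 4.23 and 5.90 in HQ, against 10.3, 8.74 and 10.8 in LQ. The log2 difference was -0.99 (95% interval -1.61 to -0.38, adjusted p = 0.0223 from limma). This call was less stable, and was lost without HQ replicate 1 (adjusted p = 0.0652), HQ replicate 2 (0.0876), LQ replicate 1 (0.0733) or LQ replicate 3 (0.121), and after GC correction (0.0548). miR-24-3p over summed miR-23 was 6.13, 7.04 and 6.57 in HQ, against 6.67, 7.38 and 6.63 in LQ, a log2 difference of -0.07 (95% interval -0.64 to 0.50, adjusted p = 0.889), and of -0.36 after GC correction (0.368). For both ratios with summed miR-27 the exact two-sided permutation test gave p = 0.1, its smallest. Thus summed miR-27, nearly all of it miR-27b-3p, passed the limma test relative to both partners, with calls that some alternatives lost. miR-27a alone over miR-23a did not pass. For miR-24-3p relative to miR-23 no difference was detected.

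**Figure D4:**
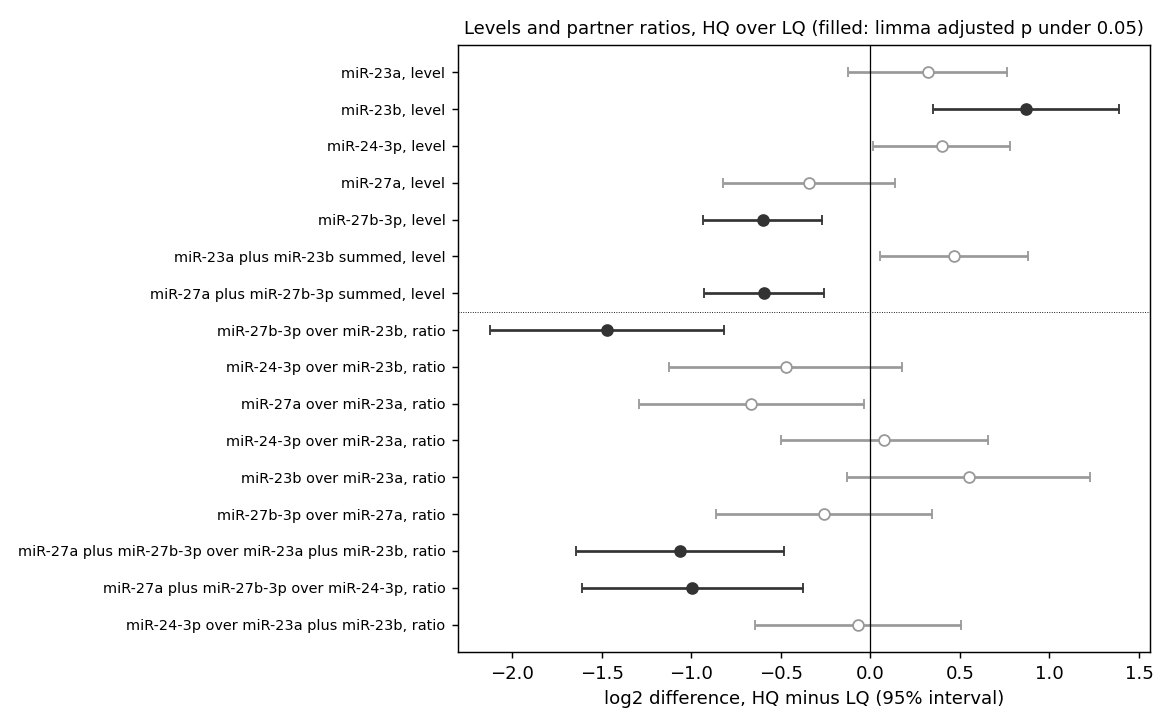
Log2 difference of HQ minus LQ with its 95% interval (horizontal axis) for the levels of the members and their sums (upper rows) and for ratios between them (lower rows, limma over all pairs), with filled points for an adjusted p under 0.05. The filled ratios, from -1.47 to -0.99, all have miR-27 on top, and the intervals of miR-24-3p over miR-23a and over summed miR-23 are centred near 0.

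The 5 members together took 13.1%, 13.9% and 14.7% of summed CPM in HQ, against 15.7%, 16.6% and 17.4% in LQ. The groups did not overlap (exact two-sided permutation test, p = 0.1, the smallest possible). Within the family, miR-27b-3p made up 78.8%, 77.3% and 81.6% of the members in HQ, against 88.4%, 86.7% and 88.4% in LQ. The other 4 members summed to 26236, 28825 and 25408 CPM in HQ, against 19985, 22729 and 21679 CPM in LQ, in the opposite order to the whole. miR-24-3p made up 16.3%, 18.6% and 14.2% of the members in HQ, against 8.71%, 10.1% and 8.34% in LQ.

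The 3 other arms of these hairpins that were analysed had few or no steps. Their sequences, with bases 2 to 8 in capitals, show that the 5′ arms of the 2 copies of miR-24, unlike the 3′ arm, can be told apart.
miR-24-1-5p: gUGCCUACugagcugaaacacagu
miR-24-2-5p: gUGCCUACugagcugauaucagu
miR-27b-5p: aGAGCUUAgcugauuggugaaca

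miR-27b-5p was at 1.88, 0 and 2.28 CPM in HQ, against 4.91, 0.441 and 0 CPM in LQ, in all 13 steps, and its fitted log2 fold change of 0.13 had a standard error of 1.03. miR-24-1-5p was found in LQ replicate 2 alone, at 0.882 CPM or 2 steps, and miR-24-2-5p was listed at 0 in all 6 libraries. These arms therefore could not show which copy the miR-24-3p reads came from.

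The seed of miR-128 is that of miR-27 moved by 1 base, so that bases 1 to 7 of miR-128 are bases 2 to 8 of miR-27. In mammals, miR-128 is best known from neurons.
miR-128: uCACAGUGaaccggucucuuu

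miR-128 was at 37677, 30264 and 25447 CPM in HQ, against 20180.0, 21869 and 25283 CPM in LQ, opposite in order to miR-27b-3p. Its log2 fold change of 0.46 was not past the threshold (adjusted p = 0.0847 from limma). The ratio of miR-27b-3p to miR-128 was 2.60, 3.24 and 4.41 in HQ, against 7.57, 6.80 and 6.53 in LQ. The only other neighbour by seed, miR-7143-5p, shares 6 seed bases with miR-24-3p and averaged 0.774 CPM in HQ and 0 CPM in LQ.

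The miRNAs whose log2 levels were most like each member over the 6 libraries were found by Pearson's r, as a description with no test, since all share the difference between groups and the library scaling. For miR-27b-3p they were miR-152 (r = 0.998), miR-218b (0.987) and miR-206 (0.986). For miR-24-3p they were miR-320 (0.984), miR-423-3p (0.981) and miR-132 (0.970). For miR-23b they were miR-296-5p (0.990), let-7e (0.966) and let-7a (0.963), and for miR-23a miR-323 (0.975), miR-326 (0.955) and miR-148a-5p (0.941). For miR-27a they were miR-17-5p (0.947), let-7i-3p (0.946) and miR-324 (0.875). No member of the family was among the 3 closest of another. miR-24-3p came 6th for miR-23a, miR-23a came 18th for miR-24-3p, and miR-23b was 277th of 308 for its own cluster partner miR-27b-3p.

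Unequal levels within a cluster were also seen elsewhere. Of 15 pairs from other clusters, 13 had both miRNAs tested, and the fold between their levels was 1.18 to 119, with a median of 5.64. On the same measure miR-27b-3p and miR-23b were 169-fold apart, more than any of these pairs, and miR-27a and miR-23a 1.41-fold. Since miR-27b-3p was picked for its high level, its fold and the place of that fold among the listed pairs are a description only. The difference between HQ and LQ in the log2 ratio of such pairs was 0.19 to 1.77 in size, with a median of 0.43. Its largest value was for miR-143-3p and miR-145-5p, above the 1.47 of miR-27b-3p and miR-23b. The groups did not overlap in 3 of these 13 pairs, against 37.1% of all pairs of tested miRNAs.

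Listed markers of other cells were set beside the members. Over all tested miRNAs, 11.7% were called higher and 14.9% lower in HQ. Summed CPM of the 3 erythrocyte miRNAs (miR-451, miR-144 and miR-486) was 99.3 to 152 in HQ, against 78.0 to 87.3 in LQ. Of the 2 tested, miR-486 was called higher and miR-451 lower, and miR-144 was at 0 in a library. Summed CPM of 5 leukocyte miRNAs was 193 to 213 in HQ, against 217 to 318 in LQ (1 of 5 lower, miR-142-5p). Of these 5, miR-155-5p and miR-150 had higher means in HQ, without passing the test. Summed CPM of endothelial miR-126-3p and miR-126-5p was 874 to 1062 in HQ, against 1619 to 2149 in LQ (1 of 2 lower). The call was for miR-126-5p, while miR-126-3p had a log2 fold change of -0.18 and groups that overlapped. The 4 muscle miRNAs, miR-206 among them, summed to 56.5 to 64.3 in HQ, against 147 to 229.9 in LQ (3 of 4 lower), and the liver miRNA miR-122-5p was at 334 to 435 in HQ, against 443 to 821 in LQ, without passing the test. The gonadal miR-202 arms, which follicular cells express, summed to 40260.3 to 89364 in HQ, against 61414 to 76637 in LQ, and overlapped. Of these 2 arms, miR-202-5p carried the sum and miR-202-3p was higher in HQ (906 ± 300.4 CPM, against 505 ± 128.4 CPM in LQ, SD, n = 3 each, log2 fold change 0.83, adjusted p = 0.0287 from limma), with groups that did not overlap. The part of these cells in the levels of the miR-23/27/24 members was not tested.

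GC content moved with the difference between groups as well. Across the 256 tested miRNAs with a known sequence, which are not independent replicates, it correlated with the log2 fold change of HQ over LQ (r = 0.445, rho = 0.477). The members have GC contents of 45.5% (miR-23b), 47.6% (miR-23a and miR-27b-3p), 52.4% (miR-27a) and 54.5% (miR-24-3p). After a correction for GC the calls of miR-23b (log2 fold change 0.98, adjusted p = 0.00999 from limma) and miR-27b-3p (-0.57, 0.0154) held, and the log2 fold change of miR-24-3p was 0.17 (0.562).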

How the data were processed

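Vesicles were isolated with the Exo-spin kit and small-RNA libraries were made with the QIAseq miRNA kit, per the labels. The authors deposited 1 signal for each of 453 miRNAs in each library, which they describe as TMM-adjusted CPM. The paper's methods credit these to CLC Genomics Workbench, with Sscrofa11.1 and miRBase, while bcl2fastq, DESeq2 and Bowtie2 (2.2.2) appear, with no role, in the submitters' processing notes. The sources used here do not say whether molecular identifiers were used to collapse reads. Values were whole multiples of 1 step per library (largest deviation 6.66e-05), which gives the depth only if a step is 1 read. Whether a step is 1 read was not tested. Since the values are described as TMM-adjusted CPM, no test for counts was run.

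The oocyte quality of the labels set the groups. A mean above 1 CPM in HQ or LQ was required, which kept 309 miRNAs. Their log2(CPM + 0.5) was modelled in R 4.3.3 by limma 3.58.1 (two-sided, variance prior with an intensity trend), and Benjamini-Hochberg adjustment covered all of them. Fold changes are on this scale. Paralogs were also summed, and ratios were taken within libraries. The limma fit of single miRNAs was tested on simulated data, while the fits of ratios and sums and the alternatives were not. Positions and sequences are those of the Sscrofa11.1 RefSeq annotation, in which 347 miRNAs were found by full name, 20 after dropping the arm, and 86 were not matched.

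The miRNAs named are the members, the other arms of their hairpins, neighbours by seed, the 3 most alike miRNAs per member, listed pairs of other clusters and listed cell markers. Members and lists were chosen with earlier results of these data known. Alternatives were the pseudocount (0.1 and 1), the filter (none, 10 CPM), 2 other scalings, no trend, array weights, a GC correction, a replicate block and each library left out. The 5′ arms of miR-23a, miR-23b and miR-27a were not analysed here.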

Additional observations from a re-analysis of the deposited data

How the results depend on the processing

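Without a trend in the variance prior, miR-23b (0.87), miR-27b-3p (-0.60), summed miR-27 (-0.60), summed miR-27 over summed miR-23 (-1.06) and over miR-24-3p (-0.99, adjusted p = 0.102 from limma), and, over all pairs, miR-27b-3p over miR-23b (-1.47) lost their calls; 0 members and 29 miRNAs in all were called, against 2 and 82. Equal sums of CPM gave 0.59 for miR-24-3p and 0.66 for summed miR-23, now called, and -0.40 for miR-27b-3p and -0.40 for summed miR-27, no longer called. Summed miR-27 over miR-24-3p lost its call without a filter (-0.99, adjusted p = 0.0740) and after GC correction (-0.83). GC correction called summed miR-23 (0.54), miR-24-3p over miR-23b (-0.80) and miR-27a over miR-23a (-0.84), and turned miR-24-3p over miR-23a to -0.18, also over all pairs. Array weights called summed miR-23 (0.46), miR-27a over miR-23a (-0.69) and miR-23b over miR-23a (0.73), and a minimum of 10 CPM called miR-27a over miR-23a (-0.66, adjusted p = 0.0486). These ratio calls came from fits with a shared denominator. The exact permutation test of miR-27b-3p over miR-23b (-1.47) gave p = 0.1, its smallest. The cause of these changes was not tested.

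Leaving out each library gave 0.71 to 1.07 for miR-23b, -0.67 to -0.56 for miR-27b-3p, -0.66 to -0.55 for summed miR-27, 0.43 to 0.52 for summed miR-23 (called without HQ replicate 3, adjusted p = 0.0495 from limma), -0.81 to -0.40 for miR-27a over miR-23a (called without HQ replicate 1, 0.0473, or 3, 0.0383), 0.34 to 0.85 for miR-23b over miR-23a (called without LQ replicate 1, 0.0294), -0.47 to -0.15 for miR-27a, -0.71 to -0.28 for miR-24-3p over miR-23b, -0.42 to -0.15 for miR-27b-3p over miR-27a, -1.18 to -0.99 for summed miR-27 over summed miR-23, -1.12 to -0.87 for summed miR-27 over miR-24-3p, 0 to 2 called members and 29 to 109 called miRNAs. The calls of ratios to miR-23a came from fits with a shared denominator, whose p is too small. In limma over all pairs, miR-27a over miR-23a had adjusted p of 0.137 without HQ replicate 1 and 0.079 without HQ replicate 3. That of miR-23b over miR-23a was 0.0552 without LQ replicate 1, so none passed there. The count over all miRNAs was 48 without HQ replicate 1, 29 without HQ replicate 2 and 46 without LQ replicate 2. That of members was 0 without HQ replicate 1 or 2, and 1 without LQ replicate 2 or 3. miR-24-3p and miR-27a kept their direction under all alternatives run, and miR-23a did too.

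Over all tested miRNAs, deviations of same-numbered libraries had r of -0.005, -0.013 and -0.036. No shared deviation was seen, but such values cannot settle whether the replicate numbers pair the libraries. miR-23b fell from replicate 1 to 3 in both groups. The standard error of miR-27b-3p over miR-23b was 0.14 with the number as a block, against 0.32 in the main fit over ratios to miR-23b. With the number as a block, miR-24-3p over miR-23b (-0.47, adjusted p = 0.0161 from limma) and miR-27a over miR-23a (-0.66, 0.0199) passed. With the block and GC correction together they did too (-0.80 and -0.84), as did miR-23b over miR-23a (0.63), and miR-24-3p over miR-23a was -0.18. These passes came from fits with a shared denominator, whose p is too small, and no block was fitted over all pairs for these ratios. Without the block, limma over all pairs gave adjusted p of 0.304, 0.126 and 0.246 for the ratios that passed, in the order given. Few steps limit what the analysed 5′ arms can show, with 13 or fewer in all for each.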
